A study of Homo sapiens with 22 samples.

Results

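RNA-seq of MDA-MB-231, a human triple-negative breast cancer (TNBC) cell line, compared 2 samples treated with 10 µM CpdA for 2 h with 2 vehicle samples. These 4 samples, taken by their labels, were among 10 RNA-seq samples in 5 groups of 2 replicates and among 22 samples in the whole series. CpdA (compound A) is a plant-derived, nonsteroidal and selective modulator of the glucocorticoid receptor (GR). The groups used beside it were 10 µM CpdA for 4 h and 100 nM Dex for 2 h, Dex (dexamethasone) being a synthetic glucocorticoid and full GR agonist. All groups were kept beforehand in phenol red-free medium with charcoal-stripped serum, which removes steroids, and vehicle was added without ligand. No time was given for vehicle in the labels, while the headers of the value columns named replicate 1 for 2 h and replicate 2 for 4 h. Replicate and time in the vehicle therefore cannot be told apart, and each gene was also set against each vehicle sample alone. The comparison asks which transcripts moved soon after CpdA was added. All values come from 1 cell line.

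Cells answer a stimulus within minutes to hours through immediate early genes, whose transcription needs no new protein. They include transcription factors (FOS, EGR and ATF3), the NR4A orphan nuclear receptors, and phosphatases that switch MAP kinases off again. The heat shock response is driven by heat shock factor 1 when unfolded protein accumulates and raises HSP70 chaperones and their partners. NF-kB drives inflammatory and survival genes, among them its own inhibitors, and is restrained by many GR ligands.

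The deposited values were RPKM, read counts scaled by transcript length and by the mapped reads of the sample, for 20668 gene symbols. Each value is a share of the reads of a bulk sample, so that fewer cells using a gene and less of its RNA per cell cannot be told apart. Relative sequencing depth was 1.0 and 1.013 in the vehicle samples and 1.185 and 1.132 at CpdA 2 h, and absolute depth is unknown. The vimentin gene VIM, abundant in mesenchymal-like lines, was read at 1439 to 1464 RPKM in the 4 samples. ESR1 and PGR, which encode the oestrogen and progesterone receptors, were at no more than 0.00253 RPKM, ERBB2 at 17.7 to 18.8 RPKM and CDH1 at 0.369 to 0.465 RPKM. Of 9 marker genes of other cell types in the files, CD14 and GFAP alone were high enough to test, with log2 differences of 0.039 and 0.085 that did not pass (adjusted p = 0.895 and 0.795, limma).

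After CpdA for 2 h, 43 genes were higher than vehicle by more than 2-fold (0.338% of the 12713 genes tested) and 19 were lower (0.149%), at a Benjamini-Hochberg adjusted p under 0.05 in limma. Fold changes and log2 differences are on the log2(RPKM + 0.1) scale, which understates the change of genes with low RPKM. The adjusted p alone was passed by 240 higher genes (1.89%) and 546 lower genes (4.29%), and 607 of these 786 genes differed by 1.5-fold or less. That split shifted to 295 higher and 367 lower genes once each sample was scaled to a common median. Without vehicle replicate 1 the counts past 2-fold were 79 higher and 27 lower, and without CpdA replicate 1 they were 36 and 11, while the adjusted p alone was passed by 1193 genes without vehicle replicate 1, by 399 without vehicle replicate 2, and by 216 and 226 without CpdA replicate 1 and 2. Both CpdA samples lay above both vehicle samples in each of the 43 genes and below both in each of the 19. The same separation occurred in 21.6% of all genes tested upwards and in 33.0% downwards. With 2 samples against 2, an exact permutation test of a single gene cannot give a p below 0.333, so each call rests on limma's variance model over the 10 samples.

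The 43 increases stood on an uneven reference. Vehicle replicate 1 exceeded vehicle replicate 2 in 37 of the 43 genes, by a median of 0.43 on the log2 scale, and in 50.8% of all genes tested. The gap was more than 1.5-fold in 17 of the 43 genes but in 1.43% of all genes. In the 19 decreases the gap had a median of 0.010, and vehicle replicate 1 was the higher sample in 10. Both CpdA samples were past 2-fold of both vehicle samples in 28 of the 43 increases and in 9 of the 19 decreases. In all genes tested this stricter pattern was met by 0.267% upwards and 0.11% downwards. Against vehicle replicate 1 alone 29 of the increases kept both CpdA samples past 2-fold, and against vehicle replicate 2 alone 42 did. The 15 increases that missed the stricter pattern were ARC, ARID5B, ARTN, BCL6, BDNF, CD274, CEBPD, CSRNP1, DUSP8, FOSB, FOSL2, GADD45A, PER1, SGK1 and SIK1. The 10 decreases that missed it were ANKRD33B, BIRC3, C10orf10, CSF2, CXCR4, IRF1, OSR1, PTX3, SOCS1 and ZNF792. The part of the vehicle difference in these results was not tested.

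**Figure D1:**
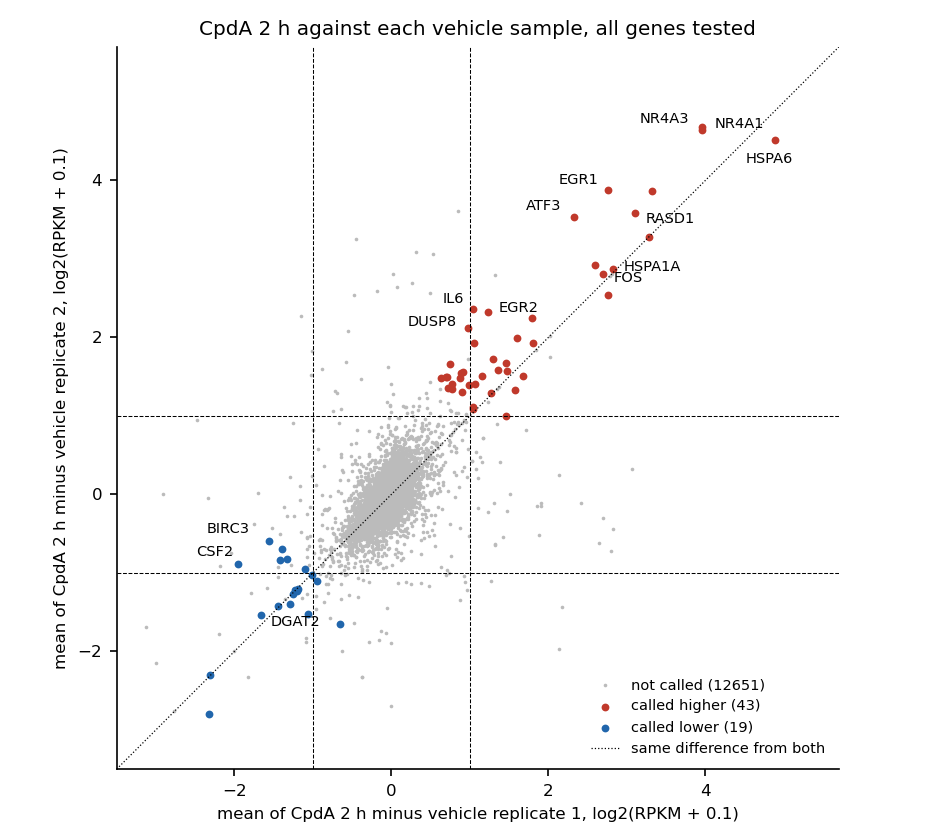
Log2(RPKM + 0.1) of the CpdA 2 h mean minus vehicle replicate 1 (x axis) and minus vehicle replicate 2 (y axis) for the 12713 genes tested, where red points are the 43 genes called higher, blue points the 19 called lower, and dashed lines mark 2-fold. Most red points lie above the dotted line of equal differences, that is, farther from vehicle replicate 2 than from replicate 1, with IL6 at 1.04 and 2.36 on the 2 axes, whereas HSPA6 lies below it at 4.89 and 4.51.

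All 3 NR4A genes rose. They encode orphan nuclear receptors that act as transcription factors without a known hormone and are induced within an hour by many signals. NR4A3 (chr9:102584137-102629173) was at 0.322 and 0.156 RPKM in the vehicle samples and 6.199 and 6.74 RPKM at CpdA 2 h. NR4A1 (chr12:52416616-52453291) went from 1.75 and 1.05 RPKM to 26.9 and 30.3 RPKM. NR4A2 (chr2:157180949-157198860) went from 2.23 and 1.49 RPKM to 24.2 and 22.0 RPKM. In each gene the treated samples were close together and far above both vehicle samples, and vehicle replicate 1 was the higher of the pair. Measured against vehicle replicate 1 alone, the log2 differences were still 3.96, 3.95 and 3.31, with adjusted p of 2.36e-05, 6.56e-06 and 7.88e-06 (limma). The median log2 difference of the 3 genes was 4.30, beside −0.016 over all genes tested. The 250 bases before the RefSeq start site of NR4A3 (chr9:102583917-102584166 on the plus strand of GRCh37) are printed 5′ to 3′ because they hold 4 copies of the short cAMP response element TGACG, read on either strand and shown in capitals, between positions −109 and −25. The last 30 of these bases lie in the first exon of another NR4A3 transcript of GENCODE. TGACG was present in the promoters of 40.7% of tested genes. NR4A1 and NR4A2 were not among the increases in which it was found, and not every increase had a promoter to search.
NR4A3: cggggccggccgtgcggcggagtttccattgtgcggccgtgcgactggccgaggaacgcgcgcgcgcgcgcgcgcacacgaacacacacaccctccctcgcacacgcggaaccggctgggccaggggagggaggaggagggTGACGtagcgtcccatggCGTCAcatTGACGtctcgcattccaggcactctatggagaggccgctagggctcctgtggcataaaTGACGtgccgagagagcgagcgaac

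HSP70 genes divided sharply. HSPA6, HSPA1A and HSPA1B, the stress-inducible members, rose strongly, while the other 8 members tested differed by no more than 0.45 on the log2 scale. HSPA6 (chr1:161494330-161496684), which encodes an HSP70 almost silent in unstressed cells, was at 0.331 and 0.457 RPKM in the vehicle samples and 11.6 and 13.8 RPKM at CpdA 2 h. Its log2 difference of 4.70 ± 0.16 (SE) was the largest of all genes called, and here vehicle replicate 2 was the higher of the pair. HSPA1A (chr6:31783320-31785723) was at 1.68 and 1.63 RPKM and then 12.0 and 13.1 RPKM, a log2 difference of 2.85 ± 0.086 (SE, n = 2 per group; adjusted p = 4.38e-07, limma). HSPA1B (chr6:31795515-31798031) was at 4.77 and 5.59 RPKM and then 31.5 and 34.3 RPKM, a log2 difference of 2.65 ± 0.10 (adjusted p = 1.16e-06). These neighbouring genes are near-identical copies, and how the short reads were divided between them is uncertain. Over 11 family members tested, 5 rose and 0 fell, beside 1.89% higher and 4.29% lower over all genes, with a median of 0.095. The other 2 that passed differed less, HSPH1, an HSP110 exchange factor, at 0.45 (adjusted p = 0.0189), and HSPA5, the endoplasmic reticulum HSP70, at 0.30 (adjusted p = 0.00878). HSPA8, the abundant constitutive HSP70, was at 705 and 845 RPKM in the vehicle samples and 816 and 832 RPKM at CpdA 2 h, with overlapping groups. HSPA1L, HSPA2, HSPA12A and HSPA12B were under the filter on low values. Against vehicle replicate 1 alone 3 members rose, and HSPH1 and HSPA5 did not pass (adjusted p = 0.0541 and 0.0618). Against replicate 2 alone 4 rose.

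The promoters of the 3 inducible HSP70 genes are shown because a heat shock element, alternating GAA and TTC units with 2 bases between units, is in each of them. Each is the 250 bases before the RefSeq start site, 5′ to 3′, with the elements in capitals except where said. HSPA6 (chr1:161494080-161494329 on the plus strand of GRCh37) holds 3 adjoining units at position −74, and these alone are in capitals, while a separate 2-unit core farther upstream is left in lower case. HSPA1A (chr6:31783070-31783319 on the plus strand) and HSPA1B (chr6:31795265-31795514 on the plus strand) hold a 2-unit core, GAANNTTC, at positions −106 and −105, and were 92.9% identical over 295 bases.
HSPA6: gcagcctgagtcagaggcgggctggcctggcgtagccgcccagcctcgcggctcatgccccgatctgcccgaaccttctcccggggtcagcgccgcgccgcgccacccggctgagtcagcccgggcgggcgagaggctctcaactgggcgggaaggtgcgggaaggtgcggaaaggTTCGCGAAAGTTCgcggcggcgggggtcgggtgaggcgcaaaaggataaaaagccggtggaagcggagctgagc
HSPA1A: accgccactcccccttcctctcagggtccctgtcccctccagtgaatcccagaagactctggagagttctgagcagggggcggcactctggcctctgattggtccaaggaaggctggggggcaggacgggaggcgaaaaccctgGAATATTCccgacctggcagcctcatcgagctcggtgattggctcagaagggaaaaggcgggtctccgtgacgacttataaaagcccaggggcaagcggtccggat
HSPA1B: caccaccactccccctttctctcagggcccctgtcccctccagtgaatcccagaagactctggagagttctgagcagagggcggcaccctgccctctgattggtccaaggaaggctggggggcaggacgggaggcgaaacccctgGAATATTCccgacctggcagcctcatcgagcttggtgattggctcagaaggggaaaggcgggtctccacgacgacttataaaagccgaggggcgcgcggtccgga
The 3-unit element occurred in 1 of the 34 called increases with a promoter in the RefSeq table, HSPA6, and in 0.491% of 9979 tested genes. The 2-unit core, TTCNNGAA included and both strands read, occurred in 8 of the 34 increases, DNAJB1 and DDIT4 among them, in 3 of 11 decreases and in 13.6% of tested genes. A match is a run of letters and does not show that heat shock factor was bound.

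Some partners of HSP70 rose, with smaller changes. Of 21 other heat shock factor targets and co-chaperones tested, 8 rose, 0 fell and 13 did not pass, with a median of 0.15. The shares over all genes were 1.89% higher and 4.29% lower. DNAJB1, the HSP40 that loads clients onto HSP70, was at 84.1 and 79.0 RPKM in the vehicle samples and 226 and 243 RPKM with CpdA, a 2.88-fold difference (adjusted p = 2.79e-06, limma). It was the member past 2-fold, and its groups lay far apart with little spread. HSPB8, a small heat shock protein, was at 4.14 and 3.55 RPKM and then 6.64 and 6.56 RPKM (log2 difference 0.77, adjusted p = 0.00230). The HSP40 genes DNAJB4 and DNAJB9 and BAG3, a co-chaperone that works with HSPB8, had log2 differences of 0.68, 0.62 and 0.36. HSF1 itself was at 56.9 and 62.0 RPKM in vehicle and 59.6 and 58.8 RPKM with CpdA, and its test did not pass (adjusted p = 0.978). CRYAB and DNAJA4 were too low to test. With either vehicle sample left out, a check chosen after seeing the data, 7 of the 21 genes passed as higher.

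Immediate early transcription factors rose in many cases and fell in none. Of 25 tested, 11 rose and 0 fell, beside 1.89% higher and 4.29% lower over all genes, with a median of 0.61. EGR1, a zinc finger factor of growth signalling, was at 6.84 and 3.12 RPKM in the vehicle samples and 45.7 and 48.6 RPKM at CpdA 2 h, a log2 difference of 3.32 ± 0.30 (SE; adjusted p = 4.05e-04, limma). ATF3, a stress-induced bZIP factor, was at 13.05 and 5.57 RPKM and then 67.5 and 64.2 RPKM (log2 difference 2.93 ± 0.29, adjusted p = 6.74e-04). FOS, which pairs with JUN proteins to form AP-1, was at 1.60 and 1.47 RPKM and then 11.1 and 10.8 RPKM (log2 difference 2.75 ± 0.065, adjusted p = 1.71e-07). The vehicle samples were close for FOS, whereas vehicle replicate 1 was more than 1.5-fold above replicate 2 for EGR1 and ATF3, so that their increases over replicate 1 were 2.77 and 2.33 and over replicate 2 3.87 and 3.54. FOSB was at 2.96 and 1.57 RPKM and then 5.24 and 7.38 RPKM (adjusted p = 0.0127), and FOSL2 at 47.3 and 27.2 RPKM and then 76.7 and 76.6 RPKM (adjusted p = 0.0125). EGR2, a paralog of EGR1, was at 0.359 and 0.116 RPKM and then 0.989 and 0.968 RPKM, and against vehicle replicate 1 alone its difference of 1.23 did not pass (adjusted p = 0.0779). It passed the filter on low values through the CpdA 2 h samples alone, so its place among the increases is no support for them. EGR3, another paralog, singled out after its values were seen, was at 1.05 and 0.0983 RPKM in the vehicle samples and 1.35 and 1.80 RPKM with CpdA and did not pass (adjusted p = 0.157). Vehicle replicate 1 was the higher vehicle sample in 22 of these 25 genes. Without it 21 of the 25 rose and 1 fell, and without vehicle replicate 2 the number was 9 higher and 0 lower.

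The EGR1 promoter (chr5:137800918-137801167 on the plus strand of GRCh37, 250 bases before the start site, 5′ to 3′) is shown because it holds 2 CArG boxes, the recognition sequence of serum response factor, and 2 short cAMP response elements (TGACG, read as CGTCA on the other strand), all in capitals.
EGR1: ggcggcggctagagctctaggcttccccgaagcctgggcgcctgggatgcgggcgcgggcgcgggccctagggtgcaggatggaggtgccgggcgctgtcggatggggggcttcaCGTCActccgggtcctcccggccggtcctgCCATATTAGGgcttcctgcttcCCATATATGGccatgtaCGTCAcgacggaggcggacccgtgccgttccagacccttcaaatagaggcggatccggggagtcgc
CArG boxes were found in 3 of the 34 increases, namely EGR1, EGR2 and PDE4D, in 1 of the 11 decreases, CXCR4, and in 1.59% of tested genes.

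Genes known to respond to cAMP and its transcription factor CREB also rose, 8 of 12 tested with 0 lower and a median of 0.96. Over all genes 1.89% rose and 4.29% fell. RASD1 (chr17:17397751-17399709), a small GTPase also called dexamethasone-induced Ras, was at 3.01 and 2.12 RPKM in the vehicle samples and 28.2 and 25.01 RPKM with CpdA. PDE4D, a phosphodiesterase that breaks cAMP down, was at 1.08 and 0.838 RPKM and then 2.35 and 2.41 RPKM (log2 difference 1.23 ± 0.14, adjusted p = 0.00151, limma). BDNF, a neurotrophin, was at 8.36 and 6.26 RPKM and then 17.2 and 16.1 RPKM (log2 difference 1.19 ± 0.11, adjusted p = 4.79e-04). In these 3 genes the groups were apart and vehicle replicate 1 lay above replicate 2. AREG, an EGF receptor ligand, was at 1.67 and 1.61 RPKM and then 3.60 and 3.44 RPKM, a 2.08-fold difference from a vehicle pair that agreed closely (adjusted p = 2.48e-04). PER1, a circadian repressor, was at 2.07 and 1.28 RPKM and then 3.96 and 3.86 RPKM (adjusted p = 0.00328). SIK1, a kinase that restrains CREB coactivators, was at 36.8 and 20.4 RPKM and then 56.6 and 57.6 RPKM (adjusted p = 0.0190), 0.63 above vehicle replicate 1 and 1.48 above replicate 2 on the log2 scale. With either vehicle sample left out the count was again 8 higher and 0 lower. PDE4B and PDE4C were too low to test. The short element TGACG was present in the promoters of 19 of the 34 increases, 5 of the 11 decreases and 40.7% of tested genes. The full element TGACGTCA, which contains the short one, was present in 4 increases (AREG, AVPI1, DUSP1 and DUSP8), 0 decreases and 3.92% of tested genes.

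MAP kinase feedback genes moved both ways: of 17 tested, 7 rose and 4 fell, with a median of 0.19. Over all genes 1.89% rose and 4.29% fell. DUSP1, a nuclear phosphatase that inactivates p38, JNK and ERK, was at 14.6 and 11.6 RPKM in the vehicle samples and 90.8 and 86.5 RPKM with CpdA, a 6.77-fold difference (log2 2.76 ± 0.085, adjusted p = 4.38e-07, limma). DUSP2 was at 0.973 and 0.823 RPKM and then 2.91 and 2.78 RPKM (log2 difference 1.57, adjusted p = 2.05e-04). Both phosphatases were far above both vehicle samples. DUSP8 was at 1.90 and 0.801 RPKM and then 4.07 and 3.58 RPKM (adjusted p = 0.0161), within 2-fold of vehicle replicate 1. ERRFI1, an inhibitor of EGF receptor kinases, was at 198 and 138 RPKM and then 261 and 259 RPKM (adjusted p = 0.0212). SPRY1, an inhibitor of Ras to ERK signalling, fell from 4.85 and 4.32 RPKM to 2.97 and 2.88 RPKM (log2 difference −0.63, adjusted p = 0.00186). The ERK phosphatases DUSP6 and DUSP7 and the inhibitor SPRED1 fell too, with log2 differences of −0.50, −0.55 and −0.27. Higher and lower members were thus found among phosphatases and among other inhibitors alike. The DUSP1 promoter (chr5:172198199-172198448 on the minus strand of GRCh37, 250 bases before the start site, 5′ to 3′) is shown for its full cAMP response element and, apart from it, 2 short ones, in capitals.
DUSP1: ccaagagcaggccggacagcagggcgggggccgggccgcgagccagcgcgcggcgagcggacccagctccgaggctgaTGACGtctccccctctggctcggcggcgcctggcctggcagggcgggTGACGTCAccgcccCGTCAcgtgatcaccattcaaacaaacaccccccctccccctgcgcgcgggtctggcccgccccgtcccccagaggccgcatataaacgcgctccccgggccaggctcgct

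**Figure D2:**
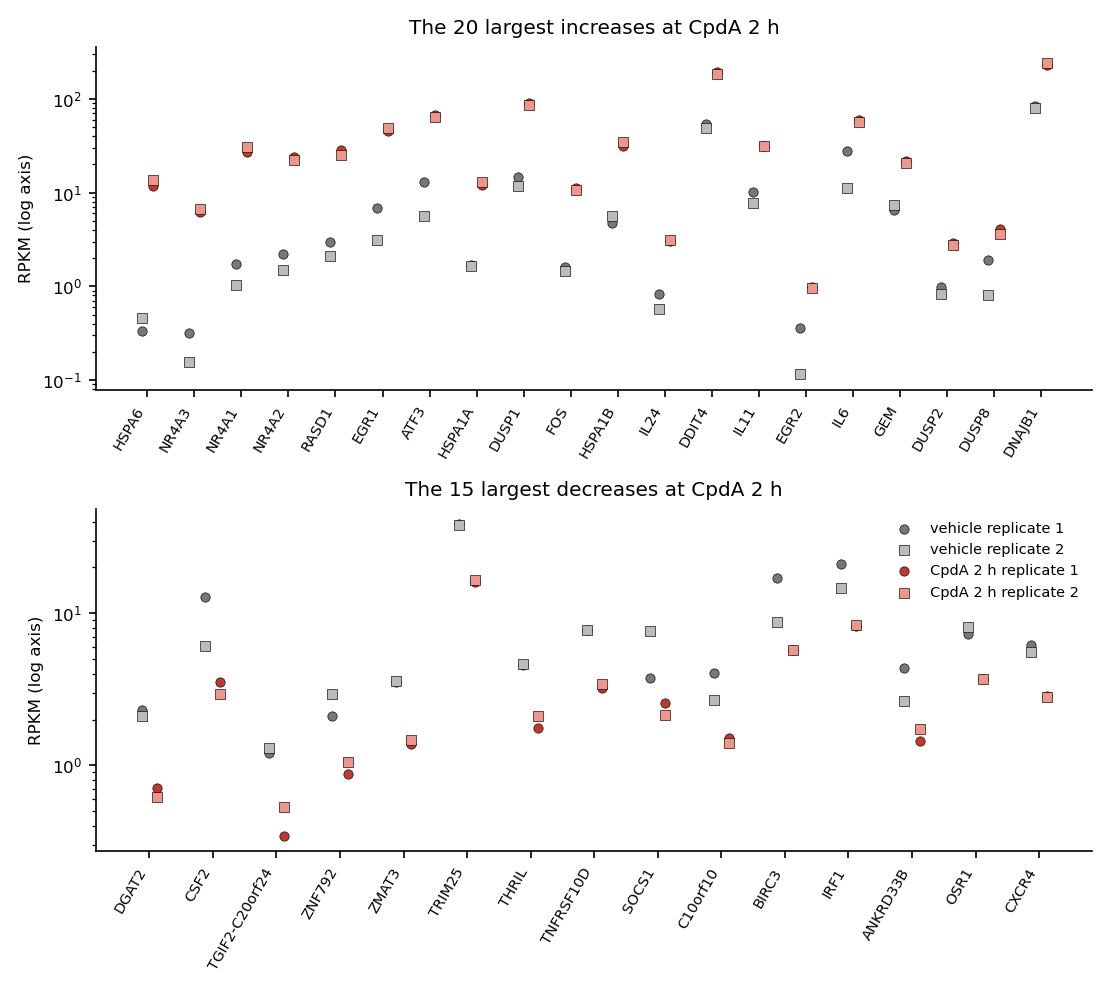
RPKM (log axis) of the 20 largest increases and the 15 largest decreases in the 2 vehicle samples (grey) and the 2 CpdA 2 h samples (red), circles for replicate 1 and squares for replicate 2. The red pair of each gene is clear of the grey pair, and the grey pair is widest apart for EGR2 (0.359 and 0.116 RPKM) and IL6 (28.0 and 11.2 RPKM).

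In the integrated stress and unfolded protein responses, phosphorylation of eIF2 and ATF4 or sensors of the endoplasmic reticulum switch on repair or death genes. Of 19 genes of these responses tested, 12 rose and 1 fell (1.89% and 4.29% over all genes), with a median of 0.34. DDIT4, an inhibitor of mTORC1, was at 53.8 and 49.1 RPKM in the vehicle samples and 193 and 182 RPKM with CpdA (log2 difference 1.87 ± 0.051, adjusted p = 2.82e-07, limma). CHAC1, a glutathione-degrading enzyme downstream of ATF4, was at 15.03 and 12.8 RPKM and then 40.5 and 37.1 RPKM (log2 difference 1.48 ± 0.081, adjusted p = 1.54e-05). DDIT3, the factor CHOP, was at 27.4 and 26.3 RPKM and then 54.6 and 51.6 RPKM (log2 difference 0.98, adjusted p = 2.80e-05). These 3 genes had vehicle samples that agreed closely. PPP1R15A (the eIF2 phosphatase subunit GADD34), HERPUD1 (a protein of endoplasmic reticulum degradation) and SESN2 (a stress-induced mTORC1 inhibitor) had log2 differences of 0.91, 0.89 and 0.86. ATF4 rose by 0.47, and the member that fell was ATF5, at −0.30 (adjusted p = 0.0463). ATF5 no longer passed after scaling to a common median or by quantiles, while the number of increases was 12 under both. Without vehicle replicate 2 the counts were 9 higher and 1 lower, and without replicate 1 they were 10 and 1.

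HMOX1, heme oxygenase 1, was at 14.4 and 17.0 RPKM in the vehicle samples and 42.3 and 43.8 RPKM at CpdA 2 h (log2 difference 1.45 ± 0.071, adjusted p = 7.61e-06, limma). It was the NRF2 target past 2-fold. Of 17 NRF2 targets tested, FTL, the ferritin light chain, was the other that rose, at 1377 and 1396 RPKM and then 1669 and 1645 RPKM (log2 difference 0.26, adjusted p = 0.0166), and 0 fell. Both CpdA samples lay above both vehicle samples in 14 of the 17, beside 21.6% of all genes, with a median of 0.19. Vehicle replicate 1 was the higher vehicle sample in 2 of the 17. The 2 increases among the 17 stood beside 1.89% higher over all genes. Without vehicle replicate 2 the count was 6 higher, and without replicate 1 it was 2. NQO1, a classical NRF2 target, was at 62.0 and 69.7 RPKM and then 72.0 and 70.2 RPKM, a log2 difference of 0.11 that did not pass.

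Cytokine genes diverged. Of 13 tested, 3 rose and 3 fell, beside 1.89% higher and 4.29% lower over all genes, with a median of 0.11. IL11, an IL6 family cytokine, was at 10.2 and 7.80 RPKM in the vehicle samples and 31.3 and 31.4 RPKM with CpdA (log2 difference 1.80 ± 0.10, adjusted p = 2.27e-05, limma). IL6 was at 28.0 and 11.2 RPKM and then 59.5 and 56.5 RPKM (log2 difference 1.70 ± 0.32, adjusted p = 0.0158). The treated pair agreed closely in both genes, but the vehicle samples of IL6 were more than 2-fold apart. IL24, a cytokine of the IL10 family outside the list, was at 0.824 and 0.573 RPKM and then 3.07 and 3.10 RPKM (log2 difference 2.01 ± 0.17, adjusted p = 2.66e-04). CXCL2 rose by 0.59 (adjusted p = 0.0114). CSF2, the granulocyte-macrophage colony-stimulating factor, was at 12.8 and 6.08 RPKM and then 3.54 and 2.94 RPKM, and CSF3 at 0.221 and 0.185 RPKM and then 0.0652 and 0.0877 RPKM. The difference of CSF2 was −1.95 from vehicle replicate 1 and −0.89 from replicate 2, and the latter alone did not pass (adjusted p = 0.0622). CSF1, the macrophage factor, fell by 0.29 on the log2 scale (adjusted p = 0.0181). All 13 genes were higher in vehicle replicate 1 than in replicate 2, by a median of 0.92. Without vehicle replicate 1 the list held 6 increases and 0 decreases, and without replicate 2 it held 2 increases and 4 decreases. CXCL5, CCL5, CCL20 and TNF were too low to test.

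Of 21 NF-kB genes tested 12 fell, 0 rose and 9 did not pass, beside 4.29% lower over all genes. The list had a median of −0.35 beside −0.016 over all genes. The members that fell included subunits, inhibitors and targets. ICAM1, an adhesion molecule and target, was at 51.6 and 47.8 RPKM in the vehicle samples and 27.3 and 27.2 RPKM with CpdA (log2 difference −0.86 ± 0.046, adjusted p = 1.28e-05, limma). IRF1, an interferon regulatory factor, was at 21.1 and 14.7 RPKM and then 8.27 and 8.33 RPKM (log2 difference −1.08 ± 0.14, adjusted p = 0.00238). BIRC3, an inhibitor of apoptosis that ubiquitinates partners of TNF receptors, was at 17.1 and 8.72 RPKM and then 5.75 and 5.704 RPKM (log2 difference −1.08 ± 0.24, adjusted p = 0.0308). Groups did not overlap in these 3 genes, although BIRC3 was −0.60 from vehicle replicate 2 alone against −1.56 from replicate 1. TNFAIP3, the A20 deubiquitinase, was at 5.35 and 3.32 RPKM and then 2.40 and 2.32 RPKM (adjusted p = 0.0308). NFKBIA, the inhibitor IkB alpha, was at 47.9 and 37.8 RPKM and then 25.7 and 24.5 RPKM (adjusted p = 0.00251), and NFKBIE, IkB epsilon, at 38.5 and 32.7 RPKM and then 23.7 and 22.5 RPKM (adjusted p = 0.00134). Among subunits NFKB1 fell by 0.49 on the log2 scale (adjusted p = 0.000677), whereas RELA was at 73.0 and 74.3 RPKM and then 68.1 and 70.2 RPKM and did not pass. Without vehicle replicate 1 the group counted 12 lower and 1 higher, and without replicate 2 it counted 13 lower and 0 higher. Under quantile normalization 12 fell, and under median scaling 11.

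Promoters of BIRC3 (chr11:102187965-102188214 on the plus strand of GRCh37) and IRF1 (chr5:131826466-131826715 on the minus strand) are shown for their NF-kB sites, of which BIRC3 holds 2 and IRF1 holds 1, in capitals. Both are the 250 bases before the RefSeq start site, 5′ to 3′, and the last 4 bases of the IRF1 sequence lie in the first exon of another GENCODE transcript.
BIRC3: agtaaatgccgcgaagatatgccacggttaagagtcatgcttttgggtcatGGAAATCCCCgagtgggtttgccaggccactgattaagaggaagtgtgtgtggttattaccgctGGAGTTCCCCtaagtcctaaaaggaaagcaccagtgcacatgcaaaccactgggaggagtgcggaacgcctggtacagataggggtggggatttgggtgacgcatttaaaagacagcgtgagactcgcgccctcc
IRF1: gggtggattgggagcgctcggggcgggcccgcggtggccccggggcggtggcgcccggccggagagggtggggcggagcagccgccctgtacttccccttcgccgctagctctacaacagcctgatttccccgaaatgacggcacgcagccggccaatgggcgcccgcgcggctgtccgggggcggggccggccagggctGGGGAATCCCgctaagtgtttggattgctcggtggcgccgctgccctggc
Counted on either strand, an NF-kB site was present in 5 of the 11 decreases with a promoter in the table (ANKRD33B, BIRC3, IRF1, PTX3 and ZNF792), in 4 of the 34 increases (BDNF, DMBT1, IL6 and RASD1) and in 8.84% of tested genes. The site was therefore also in the promoter of IL6, which rose.

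The remaining decreases past 2-fold covered varied roles. DGAT2, which completes triglyceride synthesis, was at 2.32 and 2.12 RPKM in the vehicle samples and 0.711 and 0.618 RPKM with CpdA. It was the 1 decrease among 16 sterol and lipid genes tested (6.25%, beside 4.29% of all genes). In that list 0 rose, or 3 after median scaling and 6 without vehicle replicate 1. TRIM25, a ubiquitin ligase of RIG-I signalling, was at 38.5 and 38.2 RPKM and then 16.01 and 16.6 RPKM (log2 difference −1.23 ± 0.066, adjusted p = 1.40e-05, limma). TNFRSF10D, a decoy receptor for TRAIL, was at 7.71 and 7.75 RPKM and then 3.23 and 3.40 RPKM (log2 difference −1.20 ± 0.054, adjusted p = 4.48e-06). These genes had vehicle samples that nearly coincided, as did ZMAT3, a p53-induced RNA-binding protein, at 3.52 and 3.57 RPKM and then 1.38 and 1.47 RPKM (adjusted p = 1.15e-04). THRIL, a long noncoding RNA, was at 4.57 and 4.64 RPKM and then 1.76 and 2.10 RPKM (adjusted p = 0.00189). CXCR4, the receptor for the chemokine CXCL12, was at 6.15 and 5.56 RPKM and then 2.85 and 2.80 RPKM (adjusted p = 3.07e-04). OSR1, a zinc finger factor, was at 7.29 and 8.13 RPKM and then 3.72 and 3.71 RPKM (adjusted p = 0.00109). The vehicle pair agreed in these genes too, although CXCR4 was within 2-fold of vehicle replicate 2 and OSR1 within 2-fold of replicate 1.

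In other decreases the vehicle samples were less alike. SOCS1, which blocks JAK signalling, was at 3.77 and 7.61 RPKM in the vehicle samples and 2.59 and 2.15 RPKM with CpdA, so that here vehicle replicate 2 was the higher. C10orf10, also known as DEPP and induced by FOXO factors, was at 4.05 and 2.68 RPKM and then 1.51 and 1.405 RPKM. ANKRD33B was at 4.34 and 2.63 RPKM and then 1.45 and 1.72 RPKM. Their adjusted p were 0.0305, 0.00336 and 0.0193 (limma). ZNF792, a zinc finger gene, was at 2.11 and 2.94 RPKM and then 0.877 and 1.05 RPKM (adjusted p = 0.00136). The vehicle samples were again alike in the last pair of decreases. TGIF2-C20orf24, a readthrough transcript that shares exons with its 2 parent genes, was at 1.20 and 1.30 RPKM and then 0.346 and 0.536 RPKM, and its reads cannot be assigned with certainty. Its decrease did not pass against either vehicle sample alone (adjusted p = 0.126 and 0.0503). PTX3, a pattern recognition protein, was at 61.6 and 62.6 RPKM and then 31.1 and 30.1 RPKM, the smallest of the 19 decreases at −1.02.

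The increases not yet described included GEM, a GTPase that restrains calcium channels, at 6.53 and 7.39 RPKM in the vehicle samples and 21.8 and 20.6 RPKM with CpdA (log2 difference 1.59 ± 0.069, adjusted p = 3.70e-06, limma). GADD45A, a growth arrest gene, was at 81.0 and 52.2 RPKM and then 133 and 134 RPKM (adjusted p = 0.00556). CDKN1A, the cell cycle inhibitor p21, rose by 0.63 and CCND1, cyclin D1, fell by 0.39 on the log2 scale, from 294 and 327 RPKM to 233 and 239 RPKM (adjusted p = 0.00186 and 0.00238). The kinase gene PLK3 fell by 0.53. These 4 were the genes that passed of 15 growth arrest and G1 genes, 13.3% higher and 13.3% lower. Over all genes the shares were 1.89% and 4.29%. PLK3 did not pass against either vehicle sample alone (adjusted p = 0.0613 and 0.105). Without vehicle replicate 1 the list held 5 increases and 1 decrease, and without replicate 2 it held 2 and 1. The last 10 genes of the 43 were AVPI1, DMBT1, BRE-AS1, ARC, ARTN, ARID5B, CSRNP1, BCL6, SNAI1 and CD274, named to complete the count, with log2 differences from 1.06 in CD274, the immune checkpoint ligand PD-L1, to 1.51 in AVPI1. ARC was called at 0.0529 and 0.111 RPKM in vehicle and 0.369 and 0.280 RPKM with CpdA, so that its fold rests on low values. BRE-AS1 is an antisense transcript, and without strand in the counting its reads cannot be told apart from those of its partner. It was at 0.713 and 0.702 RPKM at CpdA 2 h. Elsewhere it reached 0.5 RPKM only in CpdA 4 h replicate 2, at 0.583 RPKM. BRE-AS1 thus passed the filter on low values only with the CpdA 2 h samples, so its place among the increases is no support for them.

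Genes of classical GR signalling gave a mixed list: of 20 tested, 7 rose and 3 fell, with a median of 0.010. Over all genes 1.89% rose and 4.29% fell. SGK1, a kinase that promotes survival, was at 18.7 and 12.3 RPKM in the vehicle samples and 36.2 and 32.8 RPKM with CpdA (log2 difference 1.18 ± 0.16, adjusted p = 0.00287, limma). CEBPD, a bZIP factor, was at 12.5 and 9.40 RPKM and then 24.97 and 21.9 RPKM (log2 difference 1.10 ± 0.12, adjusted p = 0.00114). Both belong to the increases that lay within 2-fold of vehicle replicate 1. DUSP1, PER1 and ERRFI1, described above, are further members that rose, and BIRC3 and NFKBIA are members that fell. FKBP5, a co-chaperone of GR and a sensitive glucocorticoid target, was at 5.94 and 7.06 RPKM and then 5.97 and 6.08 RPKM, with overlapping groups (adjusted p = 0.466). TSC22D3, which encodes GILZ, was at 9.79 and 8.22 RPKM and then 12.4 and 12.1 RPKM, an increase of 0.44 (adjusted p = 0.00918). NR3C1, the gene of GR itself, was at 22.9 and 20.4 RPKM and then 24.7 and 25.5 RPKM and did not pass (adjusted p = 0.192). PTPN1, a tyrosine phosphatase, was at 71.3 and 64.98 RPKM and then 71.0 and 67.1 RPKM, and STK4, a Hippo pathway kinase, at 12.8 and 11.9 RPKM and then 12.4 and 12.99 RPKM. Neither passed (adjusted p = 0.882 and 0.780), with log2 differences of 0.021 ± 0.055 and 0.042 ± 0.066 (SE). NEDD9, a focal adhesion scaffold, was at 32.9 and 18.2 RPKM and then 41.6 and 38.3 RPKM (adjusted p = 0.0925), and against vehicle replicate 2 alone it passed (adjusted p = 3.77e-04). Of 6 metallothioneins tested, which zinc as well as glucocorticoids induce, 0 passed in limma, with MT1M at 0.48 (adjusted p = 0.536) and MT1A at −0.27 (adjusted p = 0.301) the farthest from 0, and after quantile normalization 1 was higher and 1 lower.

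**Figure D3:**
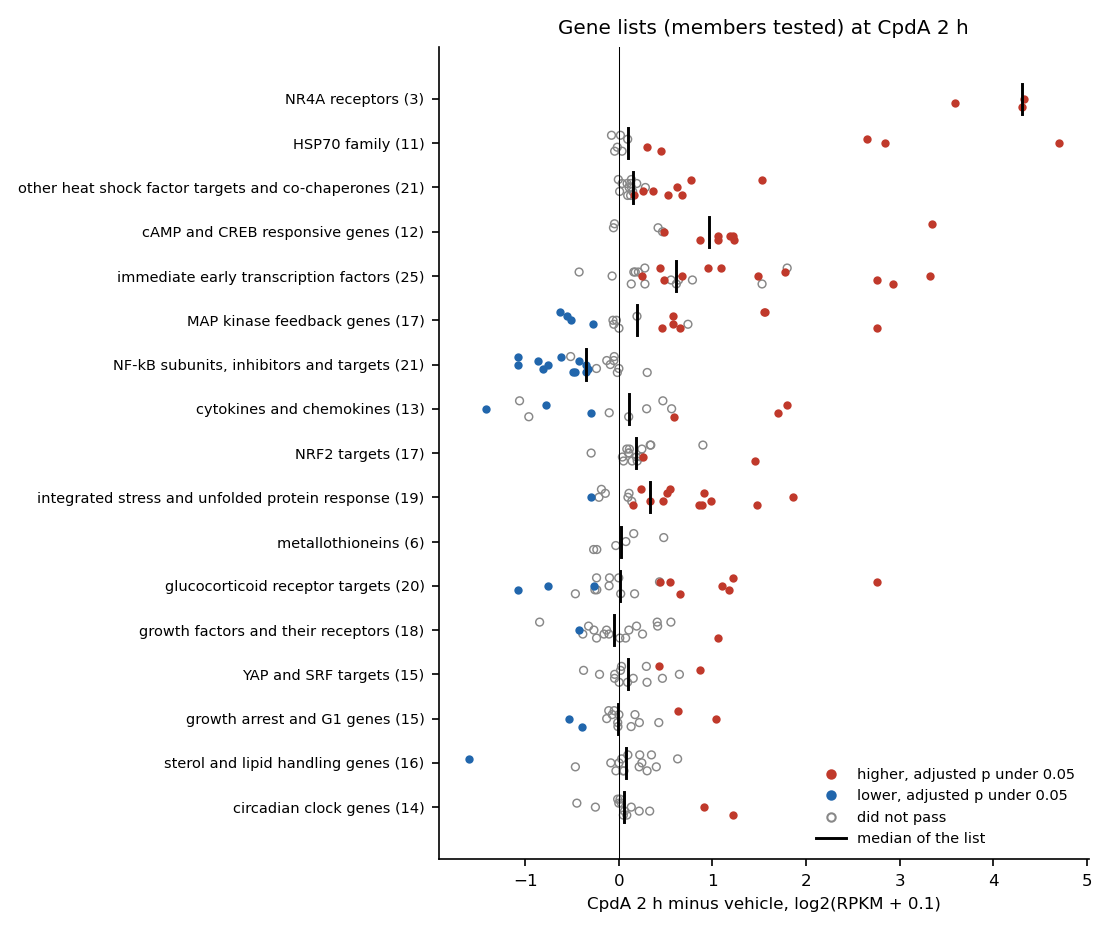
Log2 difference of CpdA 2 h minus vehicle for the tested members of 17 gene lists, with the number of members in brackets; filled red and blue points passed an adjusted p of 0.05 upwards and downwards, open circles did not, and the black bar is the list median. The NR4A bar lies at 4.30 and the NF-kB bar at −0.35, while the HSP70 bar lies at 0.095 with 3 members beyond 2.

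In further lists few members passed, beside 1.89% higher and 4.29% lower over all genes. Among 18 growth factors and receptors AREG rose and BMP4 fell, the latter from 116 and 136 RPKM to 98.5 and 87.9 RPKM (adjusted p = 0.0266, limma). Among 15 YAP and SRF targets CYR61, a matricellular protein, was at 884 and 489 RPKM and then 1228 and 1175 RPKM and LATS2, a Hippo kinase, at 12.6 and 10.5 RPKM and then 15.6 and 15.3 RPKM (adjusted p = 0.0428 and 0.0245). Without vehicle replicate 1 the growth factors counted 5 higher and 3 lower and the YAP and SRF targets 5 higher and 0 lower. Without vehicle replicate 2 they counted 1 higher and 2 lower, and 1 higher and 1 lower, and BMP4 and LATS2 did not pass (adjusted p = 0.162 and 0.129). CYR61 was 0.44 above vehicle replicate 1 and 1.30 above replicate 2 on the log2 scale. Among 14 clock genes PER1 and NFIL3, a bZIP repressor at 12.6 and 10.0 RPKM and then 21.2 and 21.4 RPKM, rose (adjusted p = 5.58e-04 for NFIL3). Of 398 ZNF zinc finger genes 26 fell (6.53%, beside 4.29% of all genes) and 3 rose (0.754%, beside 1.89%), with a median of −0.094, and after median scaling 18 fell and 4 rose. Without vehicle replicate 2 the zinc finger genes counted 2 lower and 1 higher, and without replicate 1 they counted 31 and 5. Of 76 ribosomal protein genes 0 passed in limma, with a median of 0.049, and after quantile normalization 3 were higher and 1 lower. Of 17 histone genes 0 passed, and of 302 LINC and antisense RNAs 2 rose (0.662%) and 5 fell (1.66%), both under the shares of all genes. BRE-AS1, which passed the filter only with the CpdA 2 h samples, was 1 of the 2 that rose.

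The 4 small RNA genes called had low values. MIR4442 was listed at 0 in both vehicle samples and at 0.983 and 0.771 RPKM with CpdA. It was also read with Dex for 2 h, at 0.512 and 0.721 RPKM, and CpdA against Dex did not pass (adjusted p = 0.454, limma). SNORD46 was at 0.398 and 0.393 RPKM in the vehicle samples and listed at 0 in both CpdA samples, and MIR570 was at 0.402 and 0.595 RPKM and likewise listed at 0. MIR4746 was at 1.10 and 1.08 RPKM and then 0.232 and 0.485 RPKM, and with Dex for 2 h it was at 0.242 and 0.454 RPKM. Against vehicle replicate 1 alone MIR4746, MIR570 and SNORD46 did not pass (adjusted p = 0.179, 0.0869 and 0.0519), nor did MIR4746 against replicate 2 alone (adjusted p = 0.0971). The reads behind these values are unknown, and the vehicle samples were the shallower ones. Of 107 microRNA genes tested 5 rose (4.67%) and 3 fell (2.80%). Of 120 small nucleolar and Cajal body RNAs 1 rose (0.833%) and 2 fell (1.67%), both under the shares of all genes, 1.89% and 4.29%. Without vehicle replicate 2 these counts were 4 and 1 for microRNA genes and 2 and 1 for the others, and without replicate 1 they were 5 and 3 and 5 and 4. Such short genes are poorly captured by this kind of library, so the values say nothing of the mature microRNAs.

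Gene length and TATA boxes were looked up after the values were seen. The median span in GENCODE was 9.82 kb over 41 protein-coding increases, 21.9 kb over 13 decreases and 32.9 kb over 10996 tested genes. Spans under 5 kb belonged to 14 of the 41 increases, HSPA6, RASD1, EGR1, FOS and DUSP1 among them, or 34.1%, beside 8.09% of tested genes. PDE4D, at 1553 kb, and SGK1, at 149 kb, were the longest of the increases described. The letters TATAAA, on either strand, stood in the promoters of 10 of the 34 increases (AREG, ARID5B, ATF3, DMBT1, DUSP1, FOS, FOSB, HSPA1A, HSPA1B and SGK1), in 2 of the 11 decreases and in 7.90% of tested genes.

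At 4 h of CpdA most of the 43 genes higher at 2 h had a lower RPKM than at 2 h. The 4 h and 2 h samples were contrasted directly in the same limma fit. The genes were chosen by the 2 h values that enter the contrast, so the counts are a description. No vehicle sample enters it. By the column headers vehicle replicate 1 belonged to 2 h and replicate 2 to 4 h. Replicate 1 was the higher vehicle sample in 37 of the 43 genes. A change with time in vehicle was therefore not separated from these differences. Of the 43 genes higher at 2 h, 25 were lower at 4 h than at 2 h (background 7.2% of all genes), 7 were higher (5.21%) and 11 did not pass. The 3 NR4A genes dropped back, NR4A1 to 7.30 and 8.54 RPKM, NR4A3 to 2.10 and 2.53 RPKM and NR4A2 to 6.05 and 5.73 RPKM. RASD1 was at 7.87 and 7.95 RPKM, EGR1 at 13.2 and 15.2 RPKM, DUSP1 at 46.8 and 47.4 RPKM and IL6 at 22.0 and 19.6 RPKM, inside the range of the vehicle samples in the case of IL6. The 7 genes that went higher were HSPA6, HSPA1A, HSPA1B, DNAJB1, HMOX1, DUSP2 and ARC. HSPA6 was at 43.6 and 54.4 RPKM at 4 h, HSPA1B at 51.6 and 59.6 RPKM and DNAJB1 at 287 and 323 RPKM. HMOX1 was at 100.2 and 105 RPKM, 1.25 ± 0.071 (SE) above 2 h on the log2 scale (adjusted p = 9.70e-05). Of these 7 genes, 4 encode HSP70 chaperones or their HSP40 partner. IL11, at 30.6 and 31.8 RPKM, and IL24, at 3.18 and 3.03 RPKM, were level with 2 h, with differences of −0.0073 ± 0.10 and 0.0067 ± 0.17.

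Of the 19 decreases, 14 did not differ between the times by the test, 4 were higher at 4 h (background 5.21% of all genes) and 1 was lower (7.2%). These genes too were chosen by the 2 h values that enter the contrast, so the counts are a description. The lower gene was CXCR4, at 1.44 and 1.55 RPKM at 4 h (log2 difference −0.88, adjusted p = 0.00100, limma). TNFRSF10D was at 4.39 and 4.52 RPKM and TGIF2-C20orf24, whose reads are uncertain, at 3.02 and 2.53 RPKM. MIR570 and SNORD46, listed at 0 in both CpdA 2 h samples, were the other genes that came up. TRIM25 at 17.0 and 17.2 RPKM, ZMAT3 at 1.45 and 1.59 RPKM and DGAT2 at 0.467 and 0.527 RPKM stayed near their 2 h levels. NFKBIA, not among the 19, was at 48.7 and 47.0 RPKM, above 2 h by 0.93 (adjusted p = 0.00124).

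Dex for 2 h moved part of the same genes, at 100 nM against 10 µM of CpdA, so that the doses are not matched. Both were compared with the same vehicle samples, and the contrast of CpdA with Dex was taken directly. The genes were chosen by the CpdA 2 h values that enter the contrast, so the counts are a description. Of the 43 increases, 32 were higher with CpdA than with Dex (background 6.18% of all genes), 6 were lower (7.53%) and 5 did not pass. NR4A1 was at 1.26 and 1.49 RPKM with Dex, NR4A3 at 0.0816 and 0.0944 RPKM and HSPA6 at 0.386 and 0.451 RPKM, HSPA6 and NR4A1 within the range of the vehicle samples and NR4A3 under it. IL6 was at 1.29 and 1.401 RPKM with Dex, so that CpdA minus Dex was 5.33 ± 0.32 (SE) on the log2 scale (adjusted p = 4.52e-06). IL11 was at 1.94 and 1.98 RPKM with Dex, so that these cytokines lay above vehicle with CpdA and under it with Dex. DUSP1 was at 101 and 101 RPKM with Dex, and its difference between the ligands of −0.19 ± 0.085 did not pass (adjusted p = 0.215). The 6 increases that were higher with Dex were DDIT4, PER1, SGK1, CEBPD, BCL6 and ARC, with DDIT4 at 364 and 362 RPKM. Against vehicle, Dex raised those genes and also DUSP1, FOS, RASD1, DNAJB1, DMBT1, SIK1, GADD45A and MIR4442, at an adjusted p under 0.05. It lowered NR4A2, IL6, IL11, IL24, GEM, DUSP2, CHAC1, HMOX1, BDNF and CD274, and the other increases did not pass.

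The 19 decreases were chosen by the same CpdA 2 h values, so their counts too are a description. Of them, 15 were lower with CpdA than with Dex (background 7.53% of all genes), 1 was higher (6.18%) and 3 did not pass. BIRC3 was at 52.8 and 55.6 RPKM with Dex, a difference of −3.22 ± 0.24 (SE; CpdA minus Dex, log2; adjusted p = 1.86e-05, limma). SOCS1 was at 11.6 and 10.8 RPKM and C10orf10 at 7.64 and 7.88 RPKM with Dex, above both vehicle samples, whereas CpdA left both genes under vehicle. BIRC3, SOCS1 and C10orf10 were the decreases that Dex put above vehicle at an adjusted p under 0.05. PTX3, CXCR4, OSR1, IRF1, TNFRSF10D, TRIM25, ZMAT3, CSF2 and MIR4746 were under vehicle with Dex too, and the others did not pass. CSF2, at 1.14 and 1.19 RPKM with Dex, was the decrease that was higher with CpdA. IRF1 was at 7.86 and 8.84 RPKM with Dex, and its difference between the ligands was −0.0060 ± 0.14. ICAM1, outside the 19, was under vehicle with both ligands, at 27.3 and 27.2 RPKM with CpdA and 23.8 and 24.3 RPKM with Dex.

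**Figure D4:**
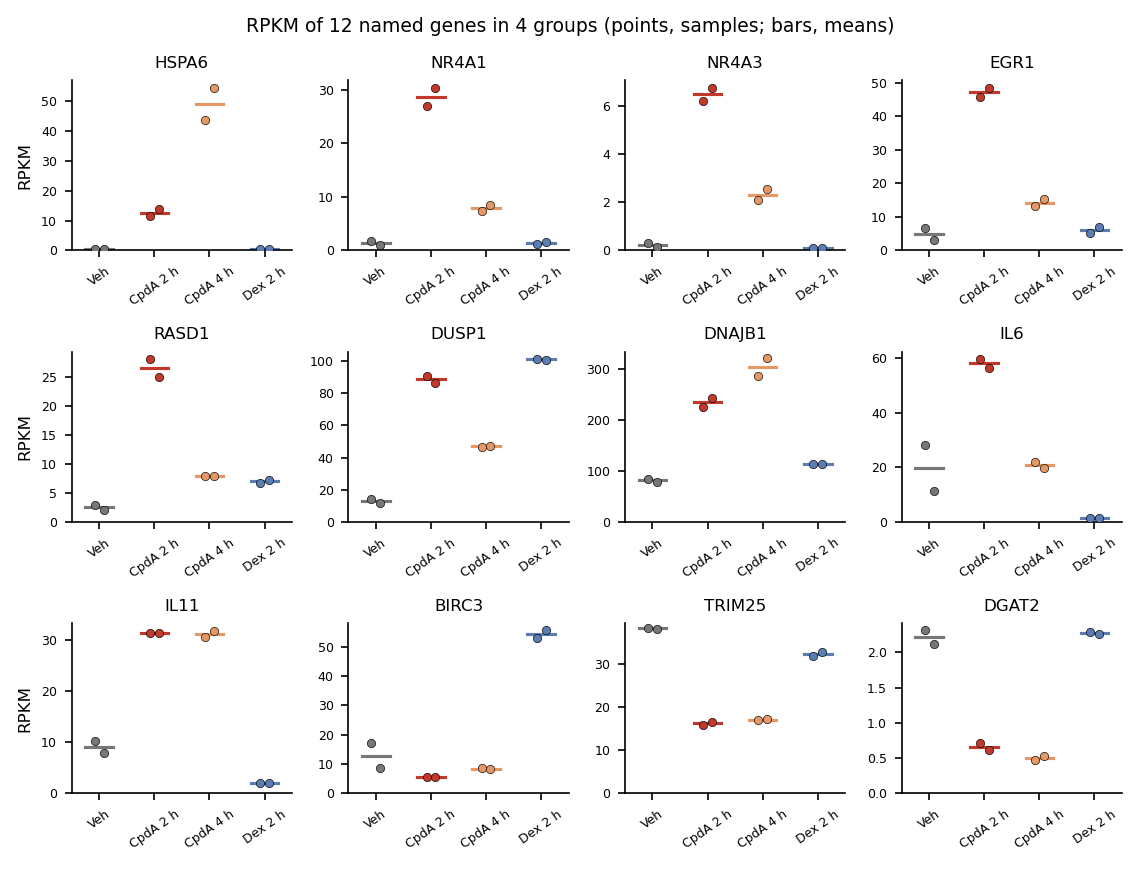
RPKM of 12 named genes in the 2 samples (points) and the mean (bar) of vehicle, CpdA 2 h, CpdA 4 h and Dex 2 h, each panel from 0. NR4A1, NR4A3, EGR1, RASD1 and IL6 peak at CpdA 2 h, HSPA6 and DNAJB1 are highest at CpdA 4 h, and BIRC3 is highest with Dex (52.8 and 55.6 RPKM).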

How the data were processed

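RNA was sequenced as 50-base single-end reads from TruSeq libraries, for which strand was not stated. Reads were aligned with TopHat 2.0.13, and the submitters' processing notes name hg19 and Partek 6.6. The RPKM values per gene symbol were made by the authors and deposited in 1 file per sample, and how transcripts were combined into symbols is not given in the sources used here. The authors' own fold changes and p-values were not used, nor were the ChIP samples.

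Genes with RPKM of at least 0.5 in at least 2 of the 10 samples were kept, values were taken as log2(RPKM + 0.1), and limma 3.58.1 in R 4.3.3 was fitted over the 5 groups with an abundance trend and moderated variances. Adjusted p are Benjamini-Hochberg values over the 12713 genes, and a gene was called past 2-fold and an adjusted p of 0.05. "Rose", "fell" and counts over gene lists use the adjusted p alone. RPKM keeps no read totals, so relative depth was read from the steps between low values. The study describes the RNA-seq samples of a group as biological replicates, without saying whether they were separate cultures, so the p-values measure the spread between these samples. On simulated data with 12713 genes, the fit recovered 89 of 100 genes changed by 0.75 and 100 of 100 changed by 1.5 (log2, CpdA 2 h against vehicle), with 9 false calls. It made 0 calls when no gene was changed. The simulated noise was independent between samples and genes, with 1 spread per gene for all groups. It therefore held no gap between the vehicle samples shared by many genes, and its counts do not measure false calls in the real data.

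The genes and lists were chosen with earlier results of these data known. Those named were the 20 largest increases and the 15 largest decreases, small noncoding RNAs set apart, up to 6 members of each list that passed or else the 2 of largest difference, the small noncoding RNAs called, and NR3C1, BIRC3, PTPN1, NFKBIA, NEDD9 and STK4. Other list members, such as HSPA8, HSF1, FKBP5, TSC22D3, NQO1 and RELA, were named after their values were seen. Promoters are from RefSeq, 250 bases before and 50 after the start site, and were placed on GRCh37 by exact match. Gene spans are from GENCODE 44 on GRCh37. Alternatives changed the pseudocount, the filter, the scaling, the variance model, the samples fitted, the replicate block and the replicates used.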

Additional observations from a re-analysis of the deposited data

Results flagged for a closer look

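For 21 of the 35 genes with the largest differences at CpdA 2 h, the RPKM differed between CpdA 4 h and CpdA 2 h. The test was the direct contrast of the 2 times in limma at an adjusted p under 0.05, with 2 samples at each time. Over all genes tested, 5.21% were higher at 4 h and 7.2% were lower by the same test. No vehicle sample enters this contrast, so a change with time in vehicle was not separated from it. These genes were picked on the 2 h values that the contrast shares. Differences are 4 h minus 2 h on the log2 scale.

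Higher at 4 h were 7 of them. HSPA6 differed by 1.94 ± 0.16 (SE; adjusted p = 0.000366), HSPA1A by 0.85, HSPA1B by 0.75 and DNAJB1 by 0.37 (adjusted p = 0.00109, 0.00241 and 0.00727). DUSP2 differed by 0.78 and TNFRSF10D by 0.41 (adjusted p = 0.00651 and 0.00279). TGIF2-C20orf24, a readthrough transcript with uncertain reads, differed by 2.43 ± 0.27 (adjusted p = 0.00145).

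The other 14 genes were lower at 4 h. The differences were −1.45 for NR4A3, −1.84 for NR4A1 and −1.95 for NR4A2, with adjusted p of 0.00567, 0.00124 and 0.000366. RASD1 and EGR1 differed by −1.73 and −1.72 (adjusted p = 0.000338 and 0.00867). ATF3 and EGR2 differed by −1.07 and −1.77 (adjusted p = 0.0444 and 0.0134). IL6 and DUSP8 differed by −1.48 and −1.12 (adjusted p = 0.0187 and 0.0371). DUSP1 and CXCR4 differed by −0.91 and −0.88 (adjusted p = 0.000695 and 0.00100). Smaller differences were those of GEM, DDIT4 and FOS, at −0.61, −0.59 and −0.39 (adjusted p = 0.00148, 0.000488 and 0.00764).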

How the results depend on the processing

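The 43 genes higher at CpdA 2 h became 28 without moderation of the variance and 35 to 79 with 1 sample left out, the most without vehicle replicate 1. The 19 lower genes became 4 with a pseudocount of 1, 12 with RPKM of at least 1 in all 10 samples, 9 without moderation and 11 to 27 with 1 sample left out. The 786 genes past the adjusted p became 368 without moderation, 480 from the 4 samples of the comparison and 216 to 1193 with 1 sample left out. The 37 called genes past 2-fold of each vehicle sample became 21 with a pseudocount of 1 and 22 with the stricter filter, and were 34 to 35 with 1 CpdA sample left out. The 48 genes that differed by 2-fold between 4 h and 2 h became 28 with a pseudocount of 1, 31 with the stricter filter, 24 without moderation, 74 from those 4 samples and 23 to 30 with 1 sample left out. The 293 genes that differed between CpdA and Dex stayed within 1.5 times under every alternative, the lowest being 206. A sample left alone in its group was assumed to vary like the other groups. With a replicate block the counts were 44 higher, 18 lower and 918 past the adjusted p. Deviations between replicates had correlations from −0.057 to 0.20 over 10 pairs of groups and 0.064 for vehicle and CpdA 2 h. Replicate and time in the vehicle cannot be told apart, so these values do not decide whether replicate numbers paired the samples.

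Of 479 values of the 35 largest differences under the alternatives, 431 kept direction and call, 48 kept direction and lost the call, and 0 reversed, and 17 increases and 8 decreases kept both throughout. Differences that had not passed changed sign without vehicle replicate 2, CD14 to −0.037, GFAP to −0.027, PTPN1 to −0.046 and STK4 to −0.0042, beside 0.11, 0.20, 0.087 and 0.089 without vehicle replicate 1. PTPN1 was −0.020 without CpdA replicate 1. The cause of these changes was not tested. With 2 samples a group and no read totals, small differences and low values are the least certain.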
